A study of Mus musculus with 12 samples.

Results

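The genes described here encode the RAB27 GTPases and the proteins through which they act in secretion. Members were taken by symbol: Rab27a and Rab27b for the GTPases, Sytl1, Sytl2, Sytl4 and Sytl5 for the synaptotagmin-like effectors, Exph5, Mlph and Myrip for the Slac2 effectors, and Unc13d for the Munc13 effector. These are 10 of the 55421 genes counted. The 12 libraries were made from polyadenylated RNA of MOC2, a line of mouse oral squamous carcinoma cells. The series examined vesicles released by senescent cells, named EVs in the labels, and how blocking that release affects signalling to other cells. The 4 groups had 3 libraries each. MOC2-25 cells, labelled EV-proficient, received DMSO as the control or 600 nM paclitaxel for 48 h, and MOC2-27 cells, labelled EV-deficient, received the same. There is 1 derivative of the line per EV label, so the label and the derivative cannot be told apart. The labels name neither the gene that was blocked nor the construct, so the targeted gene could not be checked, and all cells came from culture in the same medium. Whether the 3 libraries of a group came from separate cultures is not stated, so p-values measure only the spread between these libraries, which may be technical.

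RAB27A and RAB27B are small GTPases that sit on secretory vesicles, lysosome-related organelles and multivesicular bodies in their active, GTP-bound form. In that form they recruit effectors. Synaptotagmin-like proteins and MUNC13-4, the product of Unc13d, tether and dock the vesicle at the plasma membrane, whereas the Slac2 proteins melanophilin and MyRIP link it to myosin motors and so to actin. In epithelial tumour lines, loss of RAB27A or RAB27B is a common way to lower exosome release, which is why their transcripts bear on cells in which vesicle release was blocked.

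Levels are given in CPM, a gene's counts relative to the scaled size of its library. Totals per library ran from 23263472 counts, in the EV-proficient paclitaxel replicate 3, to 62955757. Squamous epithelial identity rested on Krt14, Krt6a, Epcam and Cdh1, since Krt5 reached at most 15 and Trp63 at most 18 counts in a group. The summed level of the 6 epithelial markers was 1513 to 1628 CPM in EV-proficient DMSO libraries, 1595 to 1662 in EV-proficient paclitaxel libraries, 2222 to 2384 in EV-deficient DMSO libraries and 1309 to 1470 in EV-deficient paclitaxel libraries. Its members did not move together: with paclitaxel in EV-deficient cells mean Krt6a fell from 318 to 2.48 CPM and mean Krt14 from 681 to 80.0 CPM, while Epcam rose from 439 to 535 CPM. In EV-proficient cells mean Epcam rose from 407 to 816 CPM, while Cdh1 fell from 944 to 605 CPM and Krt6a from 42.0 to 15.5 CPM. Of 4 leukocyte markers, the T cell gene Cd3e reached at most 2 counts in a group, and the summed level was 6.61 to 9.56 CPM over the DMSO libraries and 22.5 to 40.1 CPM over the paclitaxel libraries, most of it Cd68. The 3 fibroblast markers summed to 1.34 to 3.16 CPM under DMSO and 5.06 to 7.83 CPM under paclitaxel. The melanocyte gene Tyr was at 0 counts in all 12 libraries. The endothelial markers Pecam1 and Cdh5 summed to 1.23 to 1.90 CPM under DMSO and 1.98 to 3.35 CPM under paclitaxel, and Pecam1 was 3.15-fold higher with paclitaxel in EV-proficient cells (adjusted p = 6.0e-04) and 2.22-fold higher in EV-deficient cells (adjusted p = 0.0058). Cdh5 was at 0.74-fold in EV-proficient cells, which was not called (adjusted p = 0.21), and 1.83-fold higher in EV-deficient cells (adjusted p = 0.013). Mitochondrial transcripts made up 0.55% to 0.73% of counts in the DMSO libraries, 0.85% to 0.91% in EV-proficient paclitaxel libraries and 1.07% to 1.45% in EV-deficient paclitaxel libraries. In bulk RNA, more cells of a type and more RNA per cell cannot be told apart. The part of these markers and of the mitochondrial share in the results on the 10 genes was not tested.

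The EV labels did not order the libraries the same way under both treatments. Of the 18108 genes tested, 5955 (32.9%) had an EV-label difference of the same sign under DMSO and under paclitaxel, and so had 112 of the 2834 genes called in both. A row that the authors added for dngfr had 5.73 to 12.2 CPM in EV-proficient DMSO libraries and 1.89 to 2.54 CPM in EV-deficient DMSO libraries, but 2.47 to 3.76 CPM in EV-proficient paclitaxel libraries and 9.63 to 12.4 CPM in EV-deficient paclitaxel libraries. Differences between EV labels are therefore given for the libraries as labelled, separately for each treatment. Whether labels were exchanged within 1 treatment cannot be told from these files, and if they were, each paclitaxel effect within a label and each difference of effects would compare different derivatives. For the 10 genes, the average of the paclitaxel effects in both labels is given as well. It is given because its value does not depend on which DMSO group carries which label. All tests are edgeR quasi-likelihood tests, with p-values adjusted over the 18108 genes, with a gene called below an adjusted p of 0.05.

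Rab27a, the GTPase that docks multivesicular bodies and many lysosome-related organelles, was at a low and even level. Its levels were 5.04, 4.64 and 5.91 CPM in the EV-proficient DMSO libraries and 5.18, 4.94 and 4.77 CPM in the EV-proficient paclitaxel libraries. In EV-deficient cells they were 5.37, 5.19 and 5.07 CPM with DMSO and 4.60, 4.54 and 4.79 CPM with paclitaxel. The DMSO and paclitaxel libraries overlapped in EV-proficient cells and did not in EV-deficient cells, where all 3 paclitaxel values were the lower ones. No comparison called it. The log2 fold change for paclitaxel was -0.06 ± 0.14 (SE) in EV-proficient cells (adjusted p = 0.73) and -0.17 ± 0.14 in EV-deficient cells (adjusted p = 0.32), with an average of -0.11 ± 0.10 (adjusted p = 0.32). For EV-deficient against EV-proficient cells the 95% interval of the log2 difference ran from -0.27 to 0.28 under DMSO and from -0.38 to 0.18 under paclitaxel.

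Rab27b, the paralogue that also serves vesicle docking and movement towards the cell surface, was the more abundant GTPase transcript. Its levels were 51.4, 48.3 and 47.3 CPM in EV-proficient DMSO libraries and 46.6, 45.6 and 53.5 CPM in EV-proficient paclitaxel libraries. EV-deficient levels were 54.7, 52.6 and 55.7 CPM with DMSO and 59.7, 49.1 and 60.9 CPM with paclitaxel. The DMSO libraries of the 2 labels did not overlap, with EV-deficient cells higher, and the paclitaxel libraries did. Paclitaxel gave log2 fold changes of -0.02 ± 0.08 (adjusted p = 0.87) in EV-proficient cells and 0.06 ± 0.08 (adjusted p = 0.55) in EV-deficient cells, with an average of 0.02 ± 0.06 (adjusted p = 0.77), and none was called. With upper-quartile scaling the value in EV-deficient cells (0.24) and the average (0.14) were called. EV-deficient cells had a log2 difference of 0.15 ± 0.08 under DMSO (adjusted p = 0.21) and 0.23 ± 0.08 under paclitaxel (adjusted p = 0.034), and the second was called. That call ended when any 1 of 8 libraries was left out: EV-proficient DMSO 2, any of the 3 EV-deficient DMSO libraries, EV-proficient paclitaxel 1 or 2, or EV-deficient paclitaxel 1 or 3. The difference was 0.17 without the last of these, 0.20 without the low-count filter and 0.25 when only the paclitaxel groups were fitted, and none of these was called.

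Per kilobase of exon, Rab27b stood above Rab27a in every library. The ratio of their levels per kilobase was 3.46 ± 0.48 (SD, n = 3) in EV-proficient DMSO libraries and 3.56 ± 0.44 in EV-proficient paclitaxel libraries. It was 3.79 ± 0.18 in EV-deficient DMSO libraries and 4.42 ± 0.43 in EV-deficient paclitaxel libraries. Counting length over the longest transcript alone put the mean ratios between 4.38 and 5.59. The 2 transcripts share no run of 50 bases, and their longest identical run is 32 bases. Rab27a also overlaps the processed pseudogene Gm27186 over 149 exonic bases on the same strand, and that pseudogene had 0 counts.

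Among the 9882 genes with a mean of at least 5 CPM, those whose log2 CPM most resembled Rab27a over the 12 libraries were Cep41 (Pearson 0.85, Spearman 0.86), Lemd3 (0.78 and 0.81) and Mtrf1l (0.76 and 0.85). For Rab27b they were Cftr (0.88 and 0.89), Edn1 (0.86 and 0.87) and Papd5 (0.815 and 0.73). The points are the same 12 libraries in 4 groups with their depths and treatments in common, and these values are descriptions only.

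The plot of levels by library puts the 2 GTPases beside their effectors, each gene on its own axis from 0.

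**Figure D1:**
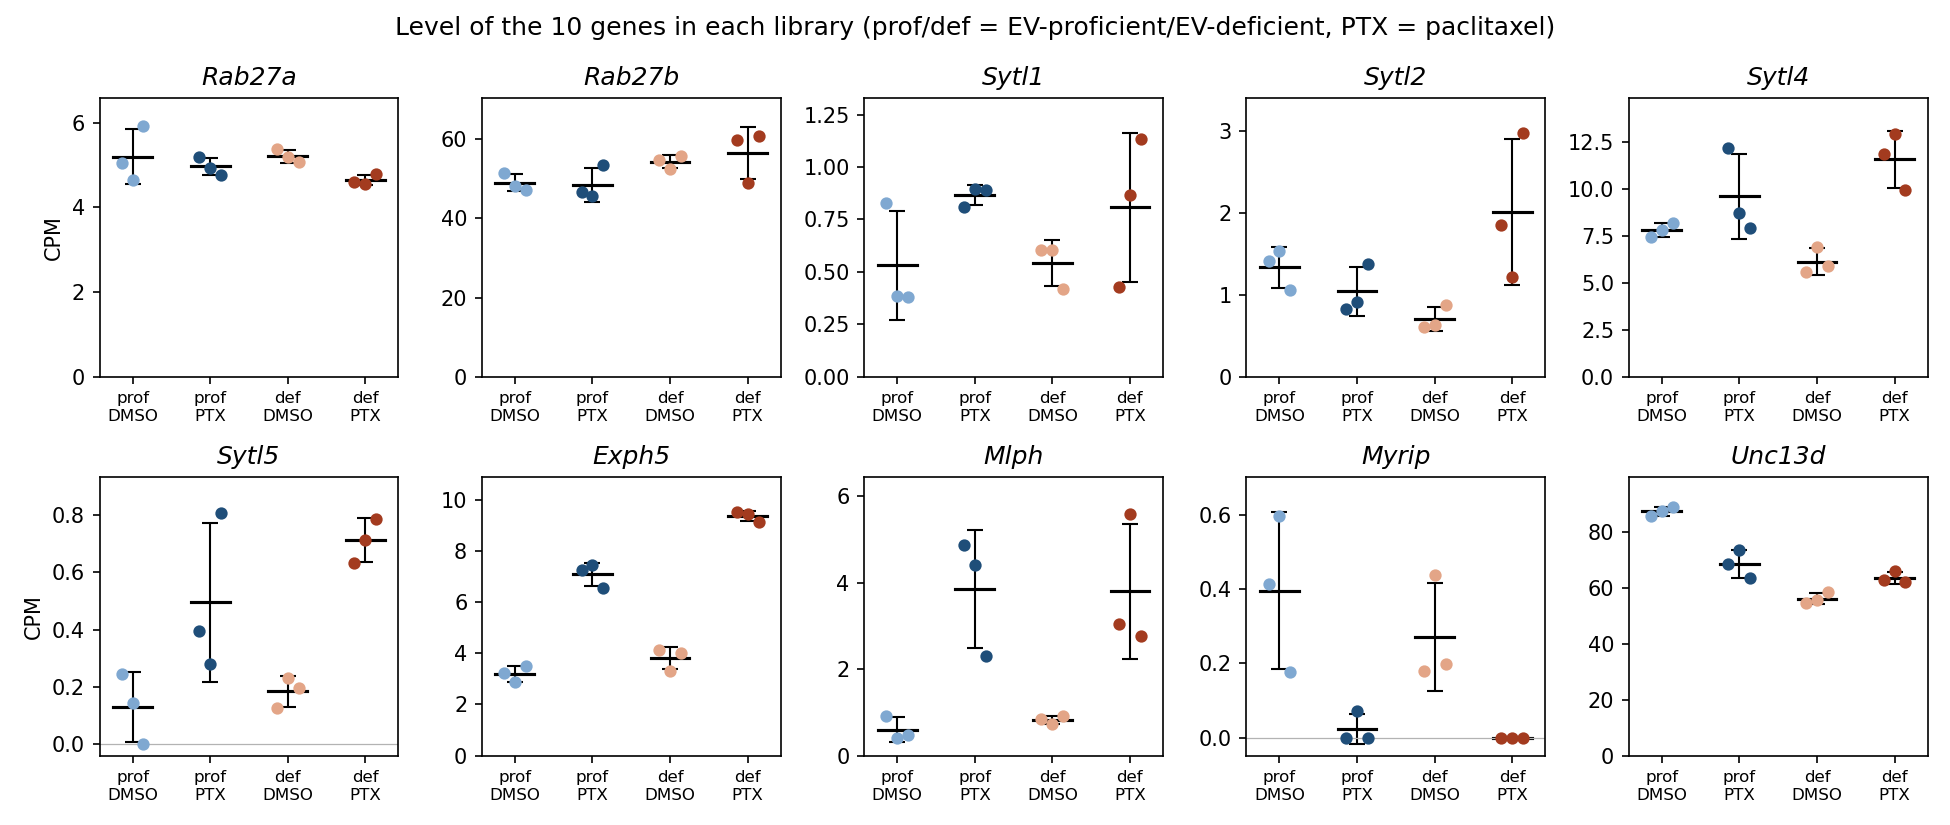
Level of each of the 10 genes in CPM (vertical axis, linear, scaled per gene) in the 4 groups (horizontal axis), with a point per library, a line at the mean and bars of 1 SD (n = 3). Mlph and Exph5 lie higher with paclitaxel under both labels, Unc13d is highest in EV-proficient DMSO libraries at 85.5 to 88.7 CPM, and Myrip is at 0 in all 3 EV-deficient paclitaxel libraries.

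Compared per kilobase of exon, Unc13d was the most abundant of the 10 transcripts in each of the 4 groups, from 11.98 ± 0.42 CPM per kilobase (SD, n = 3) in EV-deficient DMSO libraries to 18.6 ± 0.34 in EV-proficient DMSO libraries. Rab27b was next, from 4.55 ± 0.40 to 5.30 ± 0.61, and did not overlap its neighbours in that order in any group. Sytl4 and Rab27a took the next places, between 1.19 and 2.26, and exchanged order in EV-deficient DMSO libraries, where they overlapped. They also overlapped in EV-proficient DMSO libraries. Exph5 followed with DMSO at 0.30 and 0.36, ahead of Mlph at 0.11 and 0.15, and both followed with paclitaxel at 0.67 to 0.89, overlapping each other under both labels. Sytl1, Sytl2, Sytl5 and Myrip stayed at or below 0.34 in each group. Myrip came last in 3 groups and Sytl5 in EV-proficient DMSO libraries, where the 2 overlapped. This order below Rab27b depends on the length used. Over the longest transcript alone, Sytl2 was at 0.16 to 0.46 CPM per kilobase and stood above Sytl1 in EV-proficient DMSO and EV-deficient paclitaxel libraries. By that length Exph5 was at 1.19 and 1.57 with paclitaxel, against 0.86 and 0.84 for Mlph, and stood above Rab27a (1.47) in EV-deficient paclitaxel libraries.

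Of the Slac2 effectors, Mlph and Exph5 rose with paclitaxel under both EV labels. The third, Myrip, was called lower, but it passed the low-count filter only through the DMSO libraries where it was high, so that direction was favoured by its selection and is given as a description. The summed level of the 3 genes was 0.49 ± 0.058 CPM per kilobase (SD, n = 3) with DMSO and 1.40 ± 0.30 with paclitaxel in EV-proficient cells, and 0.57 ± 0.031 and 1.60 ± 0.30 in EV-deficient cells, with no overlap and no test run on the sum. RefSeq promoter windows of GRCm38.p6, from 250 bases before to 50 after a transcription start, were matched for 7 of the 10 genes. The windows of Mlph and Exph5 are shown because both genes rose, a choice made after their values were seen, that of Myrip as the remaining Slac2 gene, and those of Rab27a for comparison with a gene that was not called. Capitals mark an E-box (CACGTG) or a GC box (GGGCGG, read on either strand as GGGCGG or CCGCCC).

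Mlph, chr1:90914850-90915149, plus strand: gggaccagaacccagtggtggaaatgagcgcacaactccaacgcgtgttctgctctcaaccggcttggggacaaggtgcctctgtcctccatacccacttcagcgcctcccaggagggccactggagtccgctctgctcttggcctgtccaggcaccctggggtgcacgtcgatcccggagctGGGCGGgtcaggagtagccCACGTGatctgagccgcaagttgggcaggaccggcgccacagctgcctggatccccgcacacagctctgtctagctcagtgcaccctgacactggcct

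Exph5, chr9:53301420-53301719, plus strand: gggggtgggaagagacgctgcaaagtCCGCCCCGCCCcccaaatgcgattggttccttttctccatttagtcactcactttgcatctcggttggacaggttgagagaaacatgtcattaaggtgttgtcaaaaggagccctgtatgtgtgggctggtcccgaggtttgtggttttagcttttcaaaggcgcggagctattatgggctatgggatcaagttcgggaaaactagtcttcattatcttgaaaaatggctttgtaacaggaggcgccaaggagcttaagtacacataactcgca

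Myrip, chr9:120303823-120304122, plus strand: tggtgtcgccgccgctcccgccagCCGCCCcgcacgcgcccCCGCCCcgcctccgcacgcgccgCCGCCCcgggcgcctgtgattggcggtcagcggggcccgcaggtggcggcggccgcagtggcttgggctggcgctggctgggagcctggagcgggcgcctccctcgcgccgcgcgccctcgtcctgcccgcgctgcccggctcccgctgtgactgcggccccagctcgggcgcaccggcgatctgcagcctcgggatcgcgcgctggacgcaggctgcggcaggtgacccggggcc

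Rab27a, first start, chr9:73044560-73044859, plus strand: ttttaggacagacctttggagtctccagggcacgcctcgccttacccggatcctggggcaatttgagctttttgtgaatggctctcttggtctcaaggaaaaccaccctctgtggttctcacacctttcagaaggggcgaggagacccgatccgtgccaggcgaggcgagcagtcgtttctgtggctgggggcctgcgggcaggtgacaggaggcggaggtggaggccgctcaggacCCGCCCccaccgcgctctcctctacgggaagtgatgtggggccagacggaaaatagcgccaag

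Rab27a, second start, chr9:73063898-73064197, plus strand: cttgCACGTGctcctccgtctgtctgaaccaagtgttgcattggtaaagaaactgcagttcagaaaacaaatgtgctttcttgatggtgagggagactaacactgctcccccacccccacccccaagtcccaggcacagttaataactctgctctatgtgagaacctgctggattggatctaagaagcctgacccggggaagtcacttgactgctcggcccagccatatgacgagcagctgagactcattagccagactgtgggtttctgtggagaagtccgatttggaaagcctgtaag

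The Mlph window holds the E-box at 48 to 43 bases before the start and a GC box at 67 to 62 bases before it. The Exph5 window holds a pair of GC boxes that overlap by their last and first base, and the Myrip window holds 3. At Rab27a, the first window holds a GC box and the second an E-box. Over all 32851 RefSeq promoter windows of this length, 7.15% hold the E-box and 35.7% the GC box. The AP-1 letters TGANTCA and the interferon-response core, GAAA followed by GAAA after 2 bases of any kind, searched on both strands and present in 7.81% and 3.44% of windows, were in no window of the 7 genes. Myrip had the highest GC content of the windows, 81.7% against a median of 52.7% over all windows, and that of Exph5 was 48.7%. A match of letters is a description and shows no binding.

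Mlph encodes melanophilin, which joins RAB27A to myosin Va on melanosomes. Its levels were 0.926, 0.407 and 0.468 CPM in EV-proficient DMSO libraries and 4.86, 4.41 and 2.31 CPM with paclitaxel. In EV-deficient cells they were 0.839, 0.730 and 0.921 CPM with DMSO and 3.04, 5.60 and 2.76 CPM with paclitaxel. Every paclitaxel library lay above every DMSO library. The log2 fold change was 2.69 ± 0.35 (SE), a 6.47-fold rise, in EV-proficient cells (adjusted p = 9.2e-07) and 2.19 ± 0.33, a 4.55-fold rise, in EV-deficient cells (adjusted p = 5.1e-06). The difference between these effects was -0.51 ± 0.48 and was not called (adjusted p = 0.43), and their average was 2.44 ± 0.24 (adjusted p = 8.7e-09). The summed level of the melanocyte genes Pmel, Mlana and Tyr ranged from 0.820 to 1.56 CPM over the DMSO libraries and from 0.634 to 1.33 CPM over the paclitaxel libraries. The part of melanocyte genes in the Mlph values was not tested.

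Exph5, also called Slac2-b or exophilin 5, binds RAB27 on vesicles and is known for its part in keratinocytes. Its levels were 3.22, 2.87 and 3.48 CPM in EV-proficient DMSO libraries and 7.25, 7.44 and 6.55 CPM with paclitaxel. EV-deficient levels were 4.12, 3.32 and 3.99 CPM with DMSO and 9.52, 9.45 and 9.14 CPM with paclitaxel. The DMSO and paclitaxel libraries did not overlap under either label. The rise was 2.23-fold in EV-proficient cells (log2 1.16 ± 0.14, adjusted p = 4.5e-07) and 2.46-fold in EV-deficient cells (log2 1.30 ± 0.14, adjusted p = 3.5e-08), with an average of 1.23 ± 0.10 on the log2 scale (adjusted p = 3.7e-10). Among paclitaxel libraries Exph5 was also higher in EV-deficient cells, by 0.40 ± 0.13 on the log2 scale (adjusted p = 0.022), and these groups did not overlap. That call ended without the low-count filter (0.37) and without EV-proficient paclitaxel 1 (0.41) or 3 (0.34) or EV-deficient paclitaxel 1 (0.38).

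Myrip encodes MyRIP, which links RAB27 vesicles to myosin VIIa and myosin Va. It rested on few counts and passed the low-count filter through the DMSO libraries. Its counts were 17, 25 and 6 in EV-proficient DMSO libraries and 0, 4 and 0 with paclitaxel, and 10, 21 and 9 in EV-deficient DMSO libraries and 0, 0 and 0 with paclitaxel. In EV-proficient cells the log2 fold change was -3.67 ± 0.97 (adjusted p = 0.0031). Without EV-proficient paclitaxel 2, the library that holds all 4 counts, that group was at 0 too. In EV-deficient cells the level was at least 14.3-fold lower with paclitaxel, taking 3 counts over the group as the limit that a count of 0 allows (adjusted p = 3.6e-04). The average over both labels was called lower (adjusted p = 2.2e-05), with no fold given because 1 of the groups is at 0. The limit covers counting error only, and amplified reads are not independent molecules.

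The synaptotagmin-like proteins carry a RAB27-binding domain at one end and C2 domains, which bind membrane, at the other. Sytl4 made up most of their summed level per kilobase, with group means between 74.2% and 81.0%. The sum was 1.88 ± 0.084 CPM per kilobase (SD, n = 3) with DMSO and 2.51 ± 0.37 with paclitaxel in EV-proficient libraries, and 1.54 ± 0.17 and 3.03 ± 0.20 in EV-deficient libraries, with no overlap under either label and no test run on it. With paclitaxel, Sytl2, Sytl4 and Sytl5 were called higher in EV-deficient cells, where 32.4% of all tested genes were called higher, and Sytl5 alone in EV-proficient cells, where 31.1% were. Sytl5 passed the low-count filter only through the paclitaxel libraries where it was high, so its calls are descriptions and nothing is read from these counts.

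Sytl4, known as granuphilin, docks insulin and other dense granules and has been tied to exosome release. Its levels were 7.41, 7.80 and 8.20 CPM in EV-proficient DMSO libraries and 12.2, 8.72 and 7.93 CPM with paclitaxel. In EV-deficient cells they were 5.55, 6.92 and 5.88 CPM with DMSO and 11.8, 12.9 and 9.91 CPM with paclitaxel. The treatment groups overlapped in EV-proficient cells and not in EV-deficient cells. The rise was 1.89-fold in EV-deficient cells (log2 0.92 ± 0.15, adjusted p = 1.7e-05), whereas the log2 fold change of 0.31 ± 0.15 in EV-proficient cells was not called (adjusted p = 0.086). It was called there with upper-quartile scaling (0.37) and without EV-proficient paclitaxel 3 (0.38), and was 0.054 without EV-proficient paclitaxel 1 (adjusted p = 0.79). The 2 effects differed by 0.61 ± 0.21 (adjusted p = 0.027). The call of that difference ended when EV-proficient DMSO 2 or 3, EV-deficient DMSO 1 or 3, or EV-proficient paclitaxel 2 or 3 was left out, with values of 0.53 to 0.59. Averaged over both labels the rise was 0.61 ± 0.11 on the log2 scale (adjusted p = 2.9e-05).

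Sytl2, an effector with roles at the apical membrane of epithelia and in cytotoxic granules, moved in EV-deficient cells. Its levels were 1.41, 1.53 and 1.05 CPM in EV-proficient DMSO libraries and 0.830, 0.914 and 1.38 CPM with paclitaxel. EV-deficient levels were 0.607, 0.626 and 0.877 CPM with DMSO and 1.85, 1.21 and 2.97 CPM with paclitaxel. The treatment groups did not overlap in EV-deficient cells, and they did in EV-proficient cells. The rise with paclitaxel was 2.88-fold in EV-deficient cells (log2 1.52 ± 0.33, adjusted p = 4.0e-04), and the log2 fold change in EV-proficient cells was -0.40 ± 0.34 (adjusted p = 0.33), or -0.65 and not called without EV-proficient paclitaxel 3. The 2 effects differed by 1.92 ± 0.47 (adjusted p = 0.0023).

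The same contrast, read between EV labels, has a part under each treatment, and only the part under paclitaxel was called with all libraries. Under DMSO the log2 difference of EV-deficient from EV-proficient cells was -0.93 ± 0.34 and missed the threshold (adjusted p = 0.053). It passed with median-of-ratios scaling, DESeq2, a filter of 1 CPM in 3 libraries, the replicate block and the fit of DMSO groups alone, at -0.98 to -0.94. It also passed when EV-proficient paclitaxel 3, EV-deficient paclitaxel 2 or EV-deficient paclitaxel 3 was left out, at -0.97 in each. Under paclitaxel it was 0.99 ± 0.33 (adjusted p = 0.021) with overlapping libraries. The paclitaxel value was 0.60 without EV-deficient paclitaxel 3, 0.85 without EV-proficient paclitaxel 1 and 0.92 without EV-proficient paclitaxel 2, and none of these was called. The average paclitaxel effect, 0.56 ± 0.24 (adjusted p = 0.040), was 0.34 without EV-deficient paclitaxel 3. It also lost its call at 0.43 to 0.58 without EV-proficient DMSO 1 or 3, EV-deficient DMSO 1 or 2, EV-proficient paclitaxel 2 or 3, or EV-deficient paclitaxel 1, at 0.56 without the low-count filter and at 0.51 with limma-voom.

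Sytl5 and Sytl1 were near the detection limit. Sytl5, which passed the low-count filter through the paclitaxel libraries, had 0.244, 0.144 and 0 CPM in EV-proficient DMSO libraries and 0.395, 0.281 and 0.809 CPM with paclitaxel. In EV-deficient cells its levels were 0.125, 0.229 and 0.197 CPM with DMSO and 0.634, 0.714 and 0.787 CPM with paclitaxel. The treatment groups did not overlap under either label. The log2 fold change was 1.80 ± 0.67 (adjusted p = 0.027) and 1.95 ± 0.61 (adjusted p = 0.0087). The average over both labels was 1.88 ± 0.46 (adjusted p = 0.0010). The value in EV-proficient cells was 2.58 and called without EV-proficient DMSO 1. Its call ended in the fit of those groups alone (1.81) and without EV-proficient DMSO 2 (1.86), EV-proficient DMSO 3 (1.28) or EV-proficient paclitaxel 3 (1.28). Sytl1 lay between 0.381 and 1.13 CPM in the 12 libraries, with log2 fold changes of 0.69 ± 0.42 (adjusted p = 0.17) and 0.57 ± 0.41 (adjusted p = 0.23) that were not called. The first was 1.17 and called without EV-proficient DMSO 1, and 0.50 to 0.70 with any other 1 library left out. The second ranged from 0.23 without EV-deficient paclitaxel 3 (adjusted p = 0.68) to 0.87 without EV-deficient paclitaxel 1 and was not called in any of these fits. The average over both labels, 0.63 ± 0.29, was not called (adjusted p = 0.061) and was called with upper-quartile scaling (0.75) and without EV-proficient DMSO 1 (0.87) or EV-deficient paclitaxel 1 (0.76), and was 0.44 without EV-deficient paclitaxel 3.

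Unc13d, whose product MUNC13-4 primes RAB27A-bearing granules for fusion and is needed for killing by cytotoxic lymphocytes, had the most precise values of the group. Its levels were 85.5, 87.4 and 88.7 CPM in EV-proficient DMSO libraries and 68.3, 73.4 and 63.5 CPM with paclitaxel. In EV-deficient cells they were 54.5, 55.4 and 58.3 CPM with DMSO and 62.7, 65.9 and 61.9 CPM with paclitaxel. The treatment groups did not overlap under either label, and the order was opposite: the paclitaxel libraries were the lower ones in EV-proficient cells and the higher ones in EV-deficient cells. It fell by 0.35 ± 0.06 on the log2 scale with paclitaxel in EV-proficient cells (adjusted p = 8.6e-05) and rose by 0.18 ± 0.06 in EV-deficient cells (adjusted p = 0.019). The 2 effects differed by 0.53 ± 0.09 (adjusted p = 7.6e-05).

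The rise in EV-deficient cells lost its call without the low-count filter (0.14) and without EV-deficient DMSO 1 (0.15), EV-deficient DMSO 2 (0.16) or EV-deficient paclitaxel 2 (0.15). It was 0.36 with upper-quartile scaling (adjusted p = 4.9e-05). Under DMSO, Unc13d was lower in EV-deficient cells by a log2 difference of -0.64 ± 0.06 (adjusted p = 1.6e-07), with no overlap of libraries. Under paclitaxel the difference of -0.11 ± 0.06 was not called (adjusted p = 0.19) and the libraries overlapped. It was -0.014 with upper-quartile scaling, -0.069 with a filter of 1 CPM in 3 libraries, -0.049 without EV-proficient paclitaxel 2 and -0.17 without EV-proficient paclitaxel 3, and none of these was called. The average of both paclitaxel effects was -0.08 ± 0.05 (adjusted p = 0.11). That average was called at -0.14 without EV-proficient paclitaxel 2 and at -0.12 without EV-deficient paclitaxel 2, and was 0.04 with upper-quartile scaling. Among leukocyte markers, Cd3e had at most 2 and Lyz2 at most 15 counts in a group, while Cd68 and Ptprc were detected. Cd68 rose 4.64-fold with paclitaxel in EV-proficient cells (adjusted p = 1.0e-10) and 3.78-fold in EV-deficient cells (adjusted p = 3.2e-10). Ptprc was 2.48-fold higher with paclitaxel in EV-proficient cells (adjusted p = 0.0090) and at 0.86-fold in EV-deficient cells, which was not called (adjusted p = 0.64). Its 2 effects differed by -1.52 ± 0.55 (adjusted p = 0.032), at a mean of only 0.77 CPM over all libraries. The 2 effects on Cd68 differed by -0.30 ± 0.21, which was not called (adjusted p = 0.29). The part of these markers in the Unc13d values was not tested. In EV-deficient against EV-proficient cells Ptprc was 2.24-fold higher under DMSO (adjusted p = 0.041) and at 0.78-fold under paclitaxel, which was not called (adjusted p = 0.49).

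**Figure D2:**
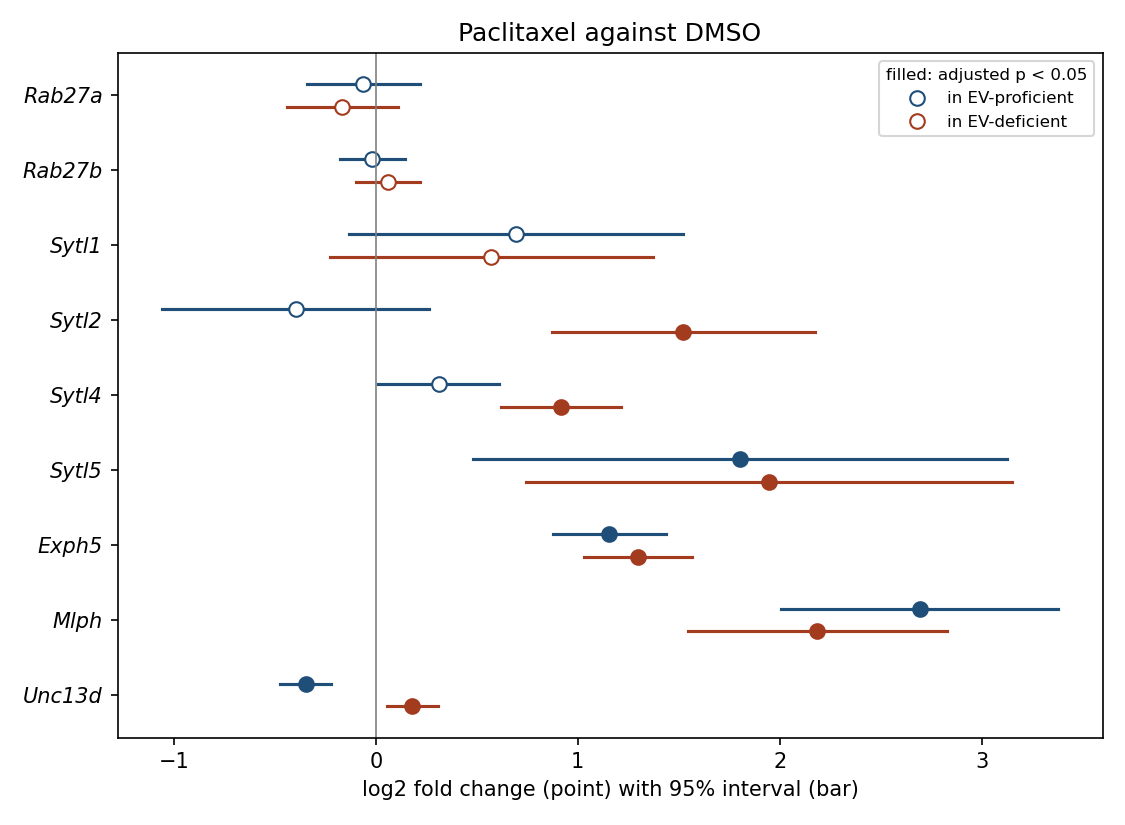
Log2 fold change of paclitaxel against DMSO for 9 of the 10 genes under each EV label, with 95% intervals from the edgeR fit, filled points for called values and open points for others. Myrip is not drawn because its EV-deficient paclitaxel libraries are all at 0. Mlph and Exph5 lie to the right of 0 under both labels, and Unc13d lies at -0.35 and 0.18. Sytl5 also lies to the right of 0 under both labels. It passed the low-count filter only through the paclitaxel libraries where it was high, which favoured that side.

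With paclitaxel, 5 of the 10 genes were called in EV-proficient cells, 3 higher and 2 lower, where 58.2% of all tested genes were called, 31.1% higher and 27.1% lower. In EV-deficient cells 7 were called, 6 higher and 1 lower, where 62.9% of all tested genes were called, 32.4% higher and 30.5% lower. Both counts are near that background, so they say little about these genes by themselves. The median log2 fold change was 0.15 over the 10 genes against 0.05 over all tested genes in EV-proficient cells, and 0.74 against 0.07 in EV-deficient cells, whose paclitaxel libraries had the highest mitochondrial shares (1.07% to 1.45%). In the average of both effects 6 of 10 were called, 5 higher and 1 lower, against 68.4% of all tested genes (37.1% higher and 31.3% lower), with a median of 0.59 against 0.07. All 10 genes passed the filter, Sytl5 and Myrip each through the groups where they were high, so their calls lend no support to these counts and medians.

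Between EV labels, Unc13d was the 1 gene called under DMSO, lower in EV-deficient cells, against 23.0% of all tested genes (12.4% higher and 10.6% lower). That count was 2 in each of 4 alternatives and 3 in the fit of DMSO groups alone, as Sytl2 and then Sytl4 (-0.38) were added. It was also 2 without EV-proficient paclitaxel 1 or 3 or EV-deficient paclitaxel 2 or 3, and the gene added without EV-proficient paclitaxel 1 was Sytl4 (-0.39). Under paclitaxel, Rab27b, Sytl2 and Exph5 were called higher in EV-deficient cells, against 37.8% of all tested genes (16.0% higher and 21.8% lower). The count was 1 without the low-count filter and without EV-proficient paclitaxel 1 or 2 or EV-deficient paclitaxel 1 or 3. Without EV-proficient paclitaxel 1, the 1 gene called was Sytl4 (0.46), which was 0.26 with all libraries and 0.14 without EV-proficient paclitaxel 3. The median log2 difference over the 10 genes was 0.02 under DMSO and 0.09 under paclitaxel, against 0.04 and -0.00 over all tested genes. The effect of paclitaxel differed between labels for 3 of the 10 genes, Sytl2, Sytl4 and Unc13d, each with the higher value in EV-deficient cells, against 40.7% of all tested genes (16.9% higher and 23.8% lower). Of the 13 cell type markers tested, Cdh1 and Cdh5 were called in that direction (0.51 and 1.31) and Krt14, Krt6a, Epcam and Ptprc in the other (-3.09, -5.54, -0.72 and -1.52).

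**Figure D3:**
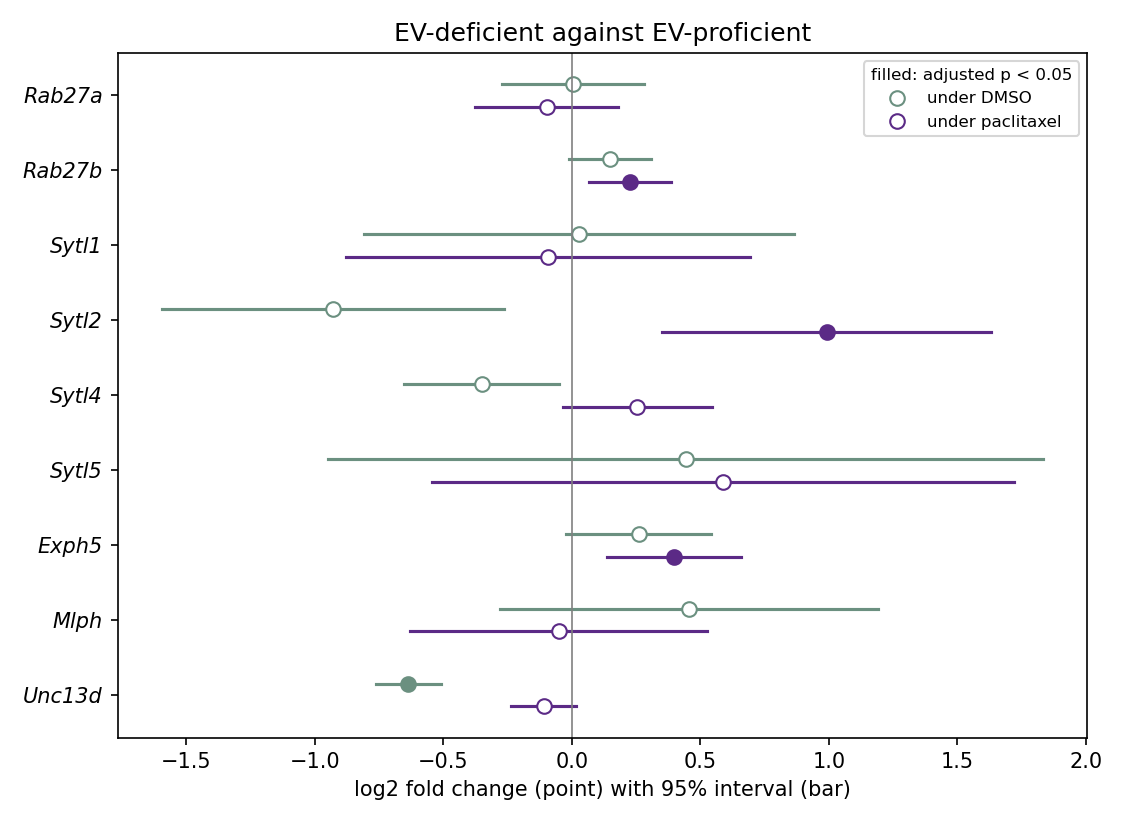
Log2 difference of EV-deficient from EV-proficient cells for 9 of the 10 genes, under DMSO and under paclitaxel, with 95% intervals from the edgeR fit, filled points for called values and open points for others. Myrip is not drawn because its EV-deficient paclitaxel libraries are all at 0, and Sytl2 lies at -0.93 under DMSO and 0.99 under paclitaxel, and Rab27a lies near 0 in both.

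A list of 36 other genes of the pathway was tested in the same fit. It held the regulators and prenylation enzymes of RAB27, other effectors and relatives, myosins, other Rabs of secretion, and the SNAREs and SM proteins of fusion. With paclitaxel, 26 were called in EV-proficient cells, 11 higher and 15 lower, and 29 in EV-deficient cells, 17 higher and 12 lower. Over all tested genes 58.2% and 62.9% were called, so a call was common in both comparisons. With upper-quartile scaling the second split was 20 higher and 6 lower. The median log2 fold change of the list was -0.10 and 0.19. Of the 7 regulators and prenylation enzymes, 3 were called in EV-proficient cells, all lower, and 6 in EV-deficient cells, 2 higher and 4 lower. Of the 12 SNAREs and SM proteins, 9 were called in EV-proficient cells, with 5 higher and 4 lower, and 10 in EV-deficient cells, with 7 higher and 3 lower.

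The largest changes in the list were in other Rabs and in Unc13a. Rab3d, a Rab of exocrine secretory granules, rose 3.25-fold in EV-proficient cells (log2 1.70 ± 0.14, adjusted p = 1.1e-09) and 6.37-fold in EV-deficient cells (log2 2.67 ± 0.14, adjusted p = 1.0e-12). Unc13a, the synaptic relative of Unc13d, rose 2.95-fold (log2 1.56 ± 0.17, adjusted p = 4.9e-08) and 3.17-fold (log2 1.66 ± 0.16, adjusted p = 1.3e-08). Rab3a, a Rab of synaptic vesicles, rose 2.86-fold in EV-proficient cells (log2 1.52 ± 0.14, adjusted p = 8.4e-09). Rab3b, its close relative, rose 4.10-fold in EV-deficient cells (log2 2.04 ± 0.13, adjusted p = 1.4e-11). The paclitaxel effect on Rab3b in EV-proficient cells was lower than that by 2.26 ± 0.18 on the log2 scale (adjusted p = 2.0e-09).

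Rab38, at a mean of 1.51 CPM over all libraries, moved in opposite directions with paclitaxel for the libraries as labelled, as Unc13d did. The gene, which encodes a Rab of melanosomes and other lysosome-related organelles, fell by 1.35 ± 0.32 on the log2 scale in EV-proficient cells (adjusted p = 0.0012) and rose by 2.19 ± 0.31 in EV-deficient cells (adjusted p = 2.4e-06), a difference of 3.54 ± 0.45 (adjusted p = 1.7e-06). Rab38 was lower in EV-deficient cells under DMSO by a log2 difference of -1.39 ± 0.32 (adjusted p = 0.0025). Under paclitaxel it was higher there by 2.15 ± 0.32 (adjusted p = 1.7e-05). Single genes of this list were not followed in the alternative fits. Rab3b was lower in EV-deficient cells under DMSO by a log2 difference of -1.18 ± 0.13 (adjusted p = 6.5e-07) and higher under paclitaxel by 1.08 ± 0.12 (adjusted p = 7.3e-07). Rab32, a partner of Rab38 in organelle biogenesis, was higher in EV-deficient cells under paclitaxel by 0.66 ± 0.08 (adjusted p = 2.5e-06). The effect of paclitaxel on Rab3a was smaller in EV-deficient cells, by a log2 difference of -1.05 ± 0.20 (adjusted p = 1.9e-04). Between labels, 18 of the 36 were called under DMSO, 4 higher and 14 lower, and 15 under paclitaxel, 9 higher and 6 lower, against 23.0% and 37.8% of all tested genes. With upper-quartile scaling the paclitaxel split was 15 higher and 3 lower. The paclitaxel effect differed between labels for 21 of the 36, with 16 higher in EV-deficient cells and 5 lower, against 40.7% of all tested genes. These comparisons share libraries.

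**Figure D4:**
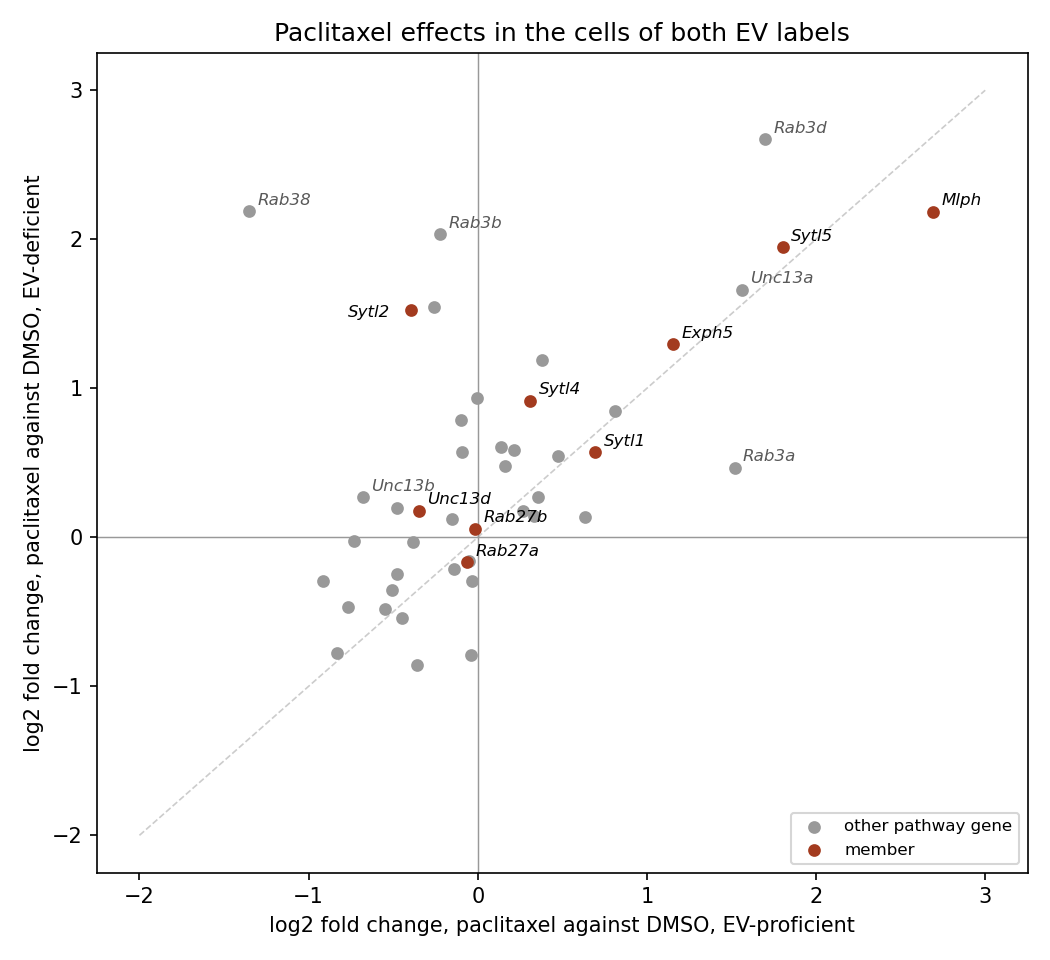
Log2 fold change of paclitaxel against DMSO in EV-proficient cells on the horizontal axis and in EV-deficient cells on the vertical axis, for 9 of the 10 genes and the 36 other pathway genes, with a dashed line where both effects are equal. Rab3d, Unc13a and Mlph lie high on both axes, Rab38 lies at -1.35 and 2.19, and Myrip is not drawn because its EV-deficient paclitaxel libraries are all at 0.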

How the data were processed

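RNA was measured in 12 libraries of MOC2 cells. The deposited values are whole, unscaled read counts for each gene in 1 table. Per the submitters' processing notes, STAR 2.5.0a and GRCm38 were used; the counting program, the annotation release and the use of strand are not given in the sources used here. Titles gave each sample's group and number. Counts were tested with edgeR 4.0.16 (quasi-likelihood, TMM scaling with factors of 0.89 to 1.15, filterByExpr with a minimum count of 10, 1 mean per group, all 12 libraries), leaving 18108 genes, with Benjamini-Hochberg adjustment and a threshold of 0.05. Levels are CPM on scaled library sizes, divided by union exon length from GENCODE M21 where genes are compared. The SE is |log2 fold change| over the root of F, and 95% intervals assume normal errors. DESeq2 1.42.0 and limma 3.58.1 (voom) were alternatives, beside other scalings, filters, the replicate block, fits of the compared groups alone and each library left out. Scripts were tested on simulated data.

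All 10 members are named. Of other pathway genes, up to 4 per comparison are named by largest change among called genes with a mean of at least 1 CPM. A pathway gene that this rule selects is not reported here. For each GTPase, the 3 most alike genes are named. Members and lists were chosen with earlier results of these data known.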

Additional observations from a re-analysis of the deposited data

Results flagged for a closer look

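The response to paclitaxel differed between EV labels for 3 of the 10 genes, by the edgeR test of the difference itself, against 40.7% of all tested genes, so the count is not above the background. For Sytl2 the log2 effect was 1.92 higher in EV-deficient than in EV-proficient cells (adjusted p = 0.0023), and all 3 EV-deficient paclitaxel libraries lay above the EV-deficient DMSO libraries. For Sytl4 it was 0.61 higher (adjusted p = 0.027), and the call was lost when any 1 of 6 libraries was left out. For Unc13d it was 0.53 higher (adjusted p = 7.6e-05), with a fall in EV-proficient cells and a rise in EV-deficient cells. The EV labels do not order the libraries the same way under both treatments, and the part of that in these 3 differences was not tested.

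The dngfr row that the authors added to the table, which no comparison used, held counts in every group. Its mean was 8.99 ± 3.23 CPM (SD, n = 3) in EV-proficient DMSO libraries, 3.24 ± 0.68 in EV-proficient paclitaxel libraries, 2.15 ± 0.35 in EV-deficient DMSO libraries and 10.9 ± 1.4 in EV-deficient paclitaxel libraries.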

How the results depend on the processing

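Of 25 called fold changes of the 10 genes, refitted under up to 8 alternatives with all libraries and with each of 12 libraries left out (485 fits), 0 changed sign, 18 were called in every fit and 7 lost the call in some. Without Sytl5 and Myrip, whose calls the low-count filter favoured, 19 remain, of which 13 were called in every fit. The number of genes called with paclitaxel in EV-proficient cells was 3 with a filter of 1 CPM in 3 libraries, which tested 7 of the 10 genes and left out Sytl1, Sytl5 and Myrip. Between labels under DMSO it was 2 with median-of-ratios scaling, that filter, DESeq2 or the replicate block, and 3 with only the groups compared. Under paclitaxel it was 1 without the low-count filter. Leaving out 1 library gave 4 to 6 called members and 24 to 26 other pathway genes with paclitaxel in EV-proficient cells, 6 to 7 and 26 to 29 in EV-deficient cells, 1 to 2 and 12 to 22 between labels under DMSO, 1 to 3 and 14 to 17 under paclitaxel, 2 to 3 and 16 to 21 for the difference of effects, and 5 to 7 and 30 to 33 for the average.

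Signs turned only for values that were not called. Rab27b with paclitaxel in EV-proficient cells was 0.043 with upper-quartile scaling, 0.010 without the low-count filter and -0.13 to 0.018 with 1 library left out. With 1 library left out, Rab27b was -0.0036 to 0.15 in EV-deficient cells and -0.038 to 0.043 in the average. With upper-quartile scaling, Rab27a was 0.019 with paclitaxel in EV-deficient cells, 0.022 for the difference of effects and 0.0082 in the average, and Unc13d was 0.038 in the average. Rab27a with paclitaxel in EV-proficient cells was -0.14 to 0.037 with 1 library left out. Between labels under DMSO, Rab27a was -0.024 with upper-quartile scaling or only the groups compared, -0.017 with median-of-ratios scaling, -0.0057 with the 1 CPM filter, -0.015 with DESeq2, and -0.063 to 0.11 with 1 library left out.

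Upper-quartile scaling moved the median of all genes by 0.18 for paclitaxel in EV-deficient cells, 0.12 for the difference of effects and 0.12 for the average. The share of called genes that were higher went from 51.5% to 63.4% in the first and from 41.4% to 53.9% in the second. Between labels under paclitaxel it went from 42.4% to 58.2%, and under DMSO from 53.9% to 64.1% without the low-count filter, 47.1% by upper-quartile and 48.2% by median-of-ratios scaling, and 43.1% to 45.0% without any 1 paclitaxel library. With upper-quartile scaling, the other pathway genes called in the average were 18 higher and 10 lower in place of 16 and 15. Same-numbered libraries correlated at -0.08 to 0.10 in their deviations from group means, and differently numbered ones at -0.11 to 0.09. With 3 libraries per group, these values cannot decide whether the numbers pair libraries. The main fit took the libraries as unpaired. With the replicate block, 5, 7, 2, 3, 3 and 6 members were called in the 6 comparisons in the order above, against 5, 7, 1, 3, 3 and 6, the added gene being Sytl2 at -0.98. With longest transcripts in place of all exons, 25 of 40 levels per kilobase moved by more than 1 SD. The cause of these shifts was not tested. Depth limits Myrip, Sytl5 and Sytl1 most, since each had few counts per library.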
